A study of Mus musculus with 18 samples.

Results

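Expression of 8 genes was examined in mouse colon: Scnn1a, Scnn1b, Scnn1g, Prss8, Nr3c2, Hsd11b2, Sgk1 and Atp12a. All but Atp12a carry or control electrogenic sodium uptake in the distal colon, and Atp12a encodes part of a potassium-absorbing proton pump there. The 8 genes were taken by symbol from a deposited table of 35976 gene symbols. All 8 reached the level required for testing, 1 TPM or more in 6 or more libraries, which 14129 genes did. TPM is a library-scaled level per unit of transcript length, so that levels of different genes can be set side by side.

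Bulk RNA sequencing covered 18 samples of colon in 3 groups of 6, all collected on day 2. Sham samples came from mice without colitis. Mice of the remaining groups had colitis caused by the hapten TNBS, which inflames the colon, and received vehicle or ISM012-042, which the series title names a gut-restricted PHD inhibitor. PHD enzymes are the prolyl hydroxylases that mark hypoxia-inducible factors for breakdown. The sources used here give no strain, sex, age, dose or segment of colon. Whether each sample is a different animal is not stated either, and p-values cover only the spread among the samples, which may be technical.

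The epithelial sodium channel, ENaC, is built of an alpha, a beta and a gamma subunit and lets sodium enter surface cells of the distal colon down its gradient, while the sodium pump removes it at the other side of the cell. Aldosterone acts on the mineralocorticoid receptor to raise channel activity, in part through the kinase Sgk1, which keeps the channel at the membrane. The distal colon also holds a potassium-absorbing proton pump, whose catalytic subunit is encoded by Atp12a.

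Sequencing depth is unknown, because TPM does not hold it, and low values carry an unknown counting error. Between 12681 and 14632 genes reached a TPM of 1 in a library, and the 13 protein-coding genes of the mitochondrial genome took between 20.1% and 57.8% of the TPM. The summed level of 7 epithelial markers lay between 6872 and 10839 TPM in sham, between 4187 and 10845 in vehicle and between 7350 and 8836 in ISM012-042, with no marker at 0 in a whole group. Each of the 7 was lower in vehicle than in sham by its fitted difference, with a median of -0.40 on the log2(TPM + 1) scale, and none passed. Hoxb13, a homeobox gene that marks the distal end of the gut, ran from 0.329 to 287.9 TPM over the 18 libraries, with group means of 166 ± 122 for sham, 61.2 ± 72.1 for vehicle and 93.1 ± 97.8 for ISM012-042 (SD, n = 6). All 5 tested position genes of this kind were lower in vehicle than in sham by their fitted differences, with a median of -2.04 on the log2(TPM + 1) scale, and none passed. Hoxb13 stood at -2.19 ± 1.40, Hoxa13 at -2.06 ± 0.73 and Hoxd13 at -2.04 ± 1.13 (adjusted p from limma of 0.444, 0.1255 and 0.366, unadjusted 0.0117 for Hoxa13). The remaining ones, Hoxd11 and Hoxd10, stood closer to no difference, at -0.49 ± 0.38 and -0.20 ± 0.48 (adjusted p from limma of 0.535 and 0.876). Hoxa13 had means of 42.2 ± 12.9 TPM in sham and 14.2 ± 11.5 in vehicle. In ISM012-042 against sham the 5 genes were lower too, with a median of -1.35 and with Hoxd11 and Hoxd10 at -0.39 and -0.19. These markers stood lower beside Scnn1a and Atp12a in both groups with colitis, and the spread of Hoxb13 within each group touches several results given further on.

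In sham the 8 genes covered a wide range of levels. Atp12a and Hsd11b2 were the most abundant, with means of 166 and 133 TPM, above 95.6% and 94.3% of the genes tested. Sgk1, Scnn1a, Nr3c2 and Prss8 followed with means of 66.3, 57.1, 39.2 and 24.8 TPM. The beta and gamma subunits were far lower, with means of 6.05 ± 1.92 and 2.21 ± 1.74 TPM (SD, n = 6).

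**Figure D1:**
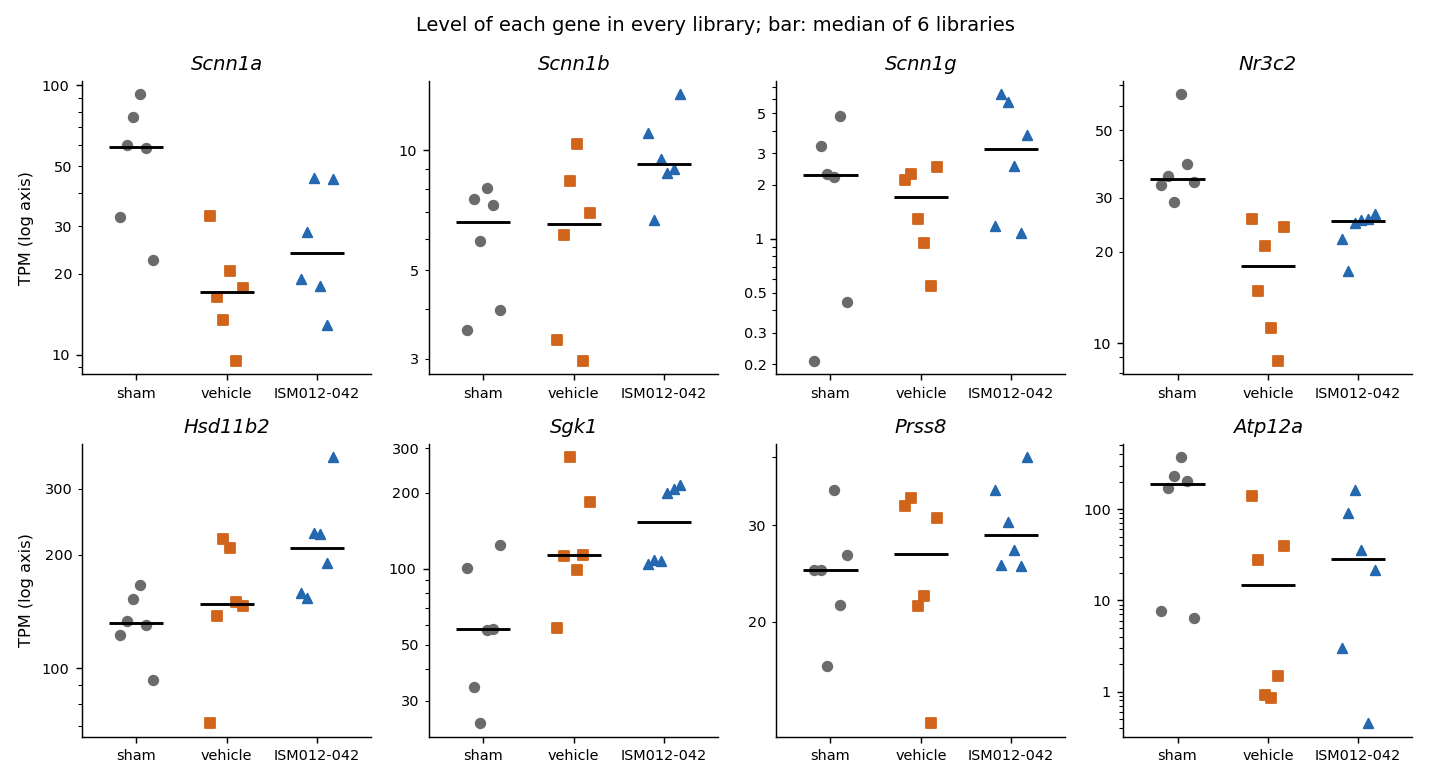
TPM of each of the 8 genes (log axis, a separate scale for each gene) in the 6 sham, 6 vehicle and 6 ISM012-042 libraries, with a bar at the median of each group. Nr3c2 in sham lies above both other groups without overlap, Scnn1a in sham lies above 5 of the 6 vehicle libraries, and Atp12a spans 0.446 to 373 TPM.

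Colitis was compared with no colitis by setting vehicle against sham. Scnn1a, the alpha subunit of the channel, and Nr3c2, the mineralocorticoid receptor, fell, and no member rose. These 2 of 8 members stand beside a background of 4.13% of all tested genes that fell, 0.326% that rose and 4.46% that did either, by an adjusted p from limma under 0.05. The background depends on the scale of the libraries. With median-ratio scaling 7.1% of genes fell and 3.63% rose, and with quantile normalization 6.7% and 3.81%, and Scnn1a and Nr3c2 were again the members that passed. The channel's beta and gamma subunits, Hsd11b2 and Prss8 had differences between -0.15 and 0.16 on the log2(TPM + 1) scale, which understates changes of low genes. In bulk tissue, fewer cells that express a gene and less RNA per cell cannot be told apart.

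Scnn1a (chromosome 6, 125314271 to 125344943, GRCm38.p6) is the subunit needed for the channel to assemble and open. Its lowest, median and highest levels were 22.4, 59.3 and 92.7 TPM in sham and 9.49, 17.02 and 32.7 TPM in vehicle. In ISM012-042 they were 12.9, 23.8 and 45.3 TPM. Of the vehicle libraries 5 lay below all sham libraries and 1, replicate 1, lay among the lower sham values. Scnn1a fell by 1.53 ± 0.37 on the log2 scale in vehicle (SE, n = 6 per group, adjusted p from limma of 0.0220), a 2.89-fold lower level. The call was lost without sham replicate 2, 4 or 5 or vehicle replicate 5, with adjusted p from limma of 0.0526 to 0.0610 and differences of -1.496 to -1.365. It was also lost with the mean level of the 7 epithelial markers as a covariate (-1.29, adjusted p from limma of 0.0628). Vehicle replicate 5 was the library with the largest mitochondrial share, 57.8%, and the fewest genes at a TPM of 1, 12681.

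Scnn1b (chromosome 7, 121865038 to 121918728) and Scnn1g (chromosome 7, 121734420 to 121768482) encode the beta and gamma subunits, which like alpha carry the motifs that Nedd4-type ligases bind to take the channel off the membrane. They lie 96555 bases apart in the same orientation. Their upstream sequences are shown because the ratio of each to Scnn1a differed between groups, as tested further on, and their own ratio did not pass. Each is the 250 bases before a RefSeq start on the plus strand of GRCm38.p6, at chr7:121734229-121734478 for Scnn1g and chr7:121864788-121865037 for Scnn1b.
Scnn1g: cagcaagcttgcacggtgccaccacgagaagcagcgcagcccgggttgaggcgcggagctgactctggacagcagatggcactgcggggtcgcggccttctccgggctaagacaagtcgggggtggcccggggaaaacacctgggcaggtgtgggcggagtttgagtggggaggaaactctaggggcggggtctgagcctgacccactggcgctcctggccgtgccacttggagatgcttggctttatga
Scnn1b: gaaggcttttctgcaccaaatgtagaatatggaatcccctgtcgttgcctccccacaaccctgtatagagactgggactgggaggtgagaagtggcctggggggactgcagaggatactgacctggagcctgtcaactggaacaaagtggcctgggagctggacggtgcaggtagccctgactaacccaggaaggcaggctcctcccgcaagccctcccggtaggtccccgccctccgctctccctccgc
The 6 motifs searched on both strands were looked for in windows from 250 bases before to 50 after each start, and their share of all 32851 RefSeq promoters was counted in the same windows. CAATAAA, the core bound by HOX13 proteins, was in 4.6% of promoters. The steroid receptor half-site AGAACA was in 19.0%, and its palindrome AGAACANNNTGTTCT in 0.00913%. Of the cores bound by hypoxia-inducible factors, ACGTG was in 19.6%. The other core, GCGTG, was in 32.4%. The TATA box, TATAAA, was in 13.6%. Neither the Scnn1g nor the Scnn1b window holds any of them, so neither sequence has capitals.

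Scnn1b had lowest, median and highest levels of 3.54, 6.61 and 8.03 TPM in sham, 2.97, 6.53 and 10.4 in vehicle, and 6.71, 9.25 and 13.8 in ISM012-042. Sham lay within the range of vehicle, while 5 of the 6 ISM012-042 libraries lay above all sham libraries. Positive differences of ISM012-042 from sham were found for 77.1% of all tested genes. The difference of vehicle from sham was 0.01 ± 0.26 (95% interval -0.53 to 0.55, adjusted p from limma of 0.990).

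Scnn1g had lowest, median and highest levels of 0.209, 2.25 and 4.82 TPM in sham, 0.548, 1.71 and 2.497 in vehicle, and 1.07, 3.16 and 6.38 in ISM012-042. The groups overlapped in every comparison, and sham replicates 1 and 6 stood below every other library. The difference of vehicle from sham was -0.15 ± 0.39 (95% interval -0.98 to 0.68, adjusted p from limma of 0.892).

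Because Scnn1a fell in vehicle and the other subunits did not pass, the balance of the subunits was tested directly as a difference of log2 levels within each library. Relative to Scnn1a, Scnn1b had means of -2.94 ± 0.45 in sham, -1.40 ± 0.81 for vehicle and -1.31 ± 0.68 under ISM012-042 (SD, n = 6). It was 1.54 higher in vehicle than in sham (exact two-sided permutation p = 0.0108, 0.0244 after Benjamini-Hochberg adjustment over 9 ratio comparisons) and 1.63 higher in ISM012-042 than in sham (exact permutation p = 0.00216, the smallest that 6 against 6 libraries allow, adjusted 0.00974). No ISM012-042 library overlapped sham in this ratio, and 1 vehicle library did. In a fit given further on, Scnn1a had a slope on Hoxb13 of 0.21 ± 0.04 and Scnn1b of 0.02 ± 0.04 (SE). The ratios were not fitted with Hoxb13, and its part in them was not tested.

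Relative to Scnn1a, Scnn1g had means of -4.24 ± 0.60 in sham, -2.85 ± 0.48 for vehicle and -2.74 ± 0.48 under ISM012-042 (SD, n = 6). It was 1.38 higher in vehicle (exact permutation p = 0.00649, adjusted 0.0195) and 1.5 higher in ISM012-042 (exact permutation p = 0.00216, adjusted 0.00974) than in sham. Between ISM012-042 and vehicle both ratios differed by less than the spread, by 0.09 and 0.12 (exact permutation p = 0.853 and 0.658). The ratio of Scnn1g to Scnn1b differed by -0.16, 0.03 and -0.13 in the 3 comparisons, with exact permutation p from 0.673 to 0.957. All comparisons with sham share the same 6 sham libraries, and the 2 ratios share Scnn1a. In vehicle the ratio differences mostly restate the Scnn1a difference of -1.53, since Scnn1b and Scnn1g stood at 0.01 and -0.15. They are not separate evidence for the fall of Scnn1a. How many other genes differ in their ratio to Scnn1a was not counted.

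**Figure D2:**
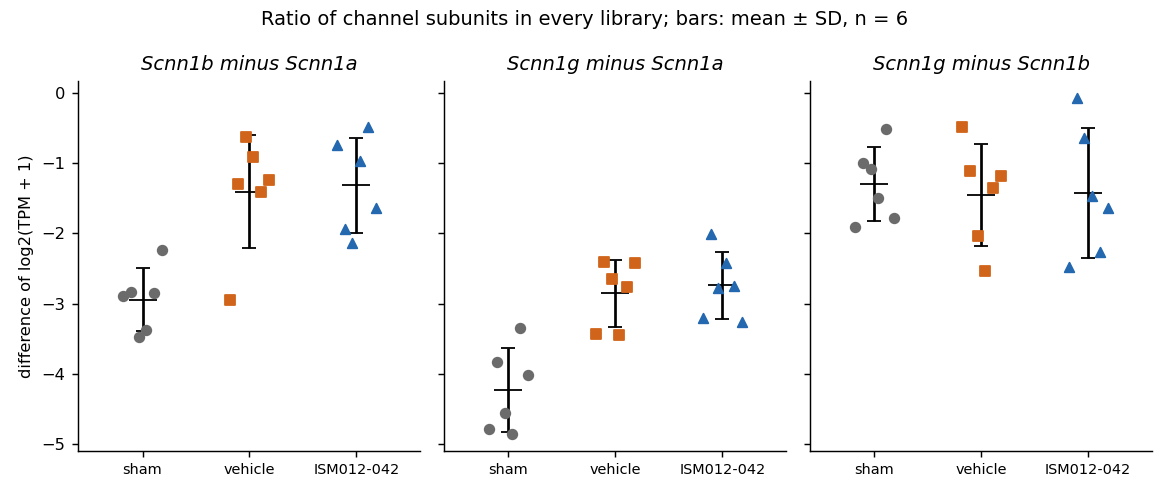
Difference of log2(TPM + 1) between pairs of channel subunits in every library, with mean ± SD of 6 libraries. Both ratios to Scnn1a are lower in sham, where Scnn1g minus Scnn1a has a mean of -4.24, than in vehicle and ISM012-042, and Scnn1g minus Scnn1b overlaps in all groups.

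Prss8 (chromosome 7, 127925717 to 127930149) encodes prostasin, a membrane-anchored serine protease that raises channel activity. Its lowest, median and highest levels were 16.6, 24.9 and 34.8 TPM in sham, 13.05, 26.6 and 33.7 in vehicle, and 25.3, 28.8 and 40.0 in ISM012-042. The groups overlapped, and the difference of vehicle from sham was 0.01 ± 0.21 (95% interval -0.44 to 0.46, adjusted p from limma of 0.987).

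Nr3c2 (chromosome 8, 76898083 to 77245012), the mineralocorticoid receptor, had lowest, median and highest levels of 29.1, 34.6 and 65.5 TPM in sham. In vehicle they were 8.77, 17.9 and 25.5 TPM, and in ISM012-042 17.3, 25.1 and 26.5 TPM. Every vehicle library and every ISM012-042 library lay below every sham library, where 2.6% and 4.86% of tested genes had groups without overlap. Nr3c2 fell by 1.16 ± 0.24 on the log2 scale in vehicle (SE, n = 6 per group, adjusted p from limma of 0.00937), to a level 2.23-fold lower. With the epithelial marker level as a covariate the difference was -0.85 (adjusted p from limma of 0.0338), and with the Hoxb13 level -1.03 (0.0229). Leaving out each library in turn gave -1.28 to -0.99, with adjusted p from limma of 0.00420 to 0.0278.

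Hsd11b2 (chromosome 8, 105518746 to 105523988) encodes the enzyme that inactivates corticosterone and so keeps the mineralocorticoid receptor free for aldosterone. Its lowest, median and highest levels were 92.9, 132 and 167 TPM in sham, 71.2, 148 and 221 in vehicle, and 154, 209 and 364 in ISM012-042. The ranges overlapped, with 4 of 6 ISM012-042 libraries above all sham libraries, where 77.1% of all tested genes had positive differences of ISM012-042 from sham. The difference of vehicle from sham was 0.16 ± 0.25 (adjusted p from limma of 0.785).

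Sgk1 (chromosome 10, 21882184 to 21999903) encodes a kinase whose gene is induced by aldosterone and by glucocorticoids. The 250 bases before 1 of its 6 RefSeq starts, at chr10:21993640-21993889 on the plus strand of GRCm38.p6, are shown because they hold the palindrome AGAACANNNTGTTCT, found in 3 of 32851 promoters.
Sgk1: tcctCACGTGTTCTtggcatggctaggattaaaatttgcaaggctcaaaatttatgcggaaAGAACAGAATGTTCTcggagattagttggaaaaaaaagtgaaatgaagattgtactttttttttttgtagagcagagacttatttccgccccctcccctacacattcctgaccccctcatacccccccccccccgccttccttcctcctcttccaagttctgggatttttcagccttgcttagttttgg
The palindrome is the second stretch in capitals and begins 189 bases before the start. The first stretch in capitals is ACGTG on both strands, which overlap, joined to the half-site TGTTCT with which it shares bases. A match describes the letters of this window and no binding was measured.

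The lowest, median and highest levels of Sgk1 were 24.4, 57.5 and 124 TPM in sham, 58.1, 113 and 277 in vehicle, and 104, 154 and 215 in ISM012-042. All vehicle and all ISM012-042 libraries lay above the sham median, and 2 and 3 of them lay above the whole of sham. The difference of vehicle from sham was 1.11 ± 0.39 and missed the threshold (adjusted p from limma of 0.121). Without vehicle replicate 1 it was 1.33 and passed (adjusted p from limma of 0.0454), where 0.566% of all genes rose.

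Atp12a (chromosome 14, 56364669 to 56388551), the catalytic subunit of the colonic proton and potassium pump, varied more within groups than any other member. Its lowest, median and highest levels were 6.46, 188 and 373 TPM in sham, 0.845, 14.7 and 139 in vehicle, and 0.446, 28.7 and 161 in ISM012-042. Within sham, replicates 1 and 6 had 7.61 and 6.46 TPM and the other libraries at least 171. The difference of vehicle from sham was -2.85 ± 1.40, with a 95% interval of -5.79 to 0.10 (adjusted p from limma of 0.296).

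The effect of the compound in colitis was addressed by comparing ISM012-042 with vehicle. No member passed, beside a background of 0% of the 14129 genes, whose smallest adjusted p from limma was 0.233. An unadjusted p under 0.05 was found for 2688 genes, 19% of those tested, of which 2670 were higher. All 8 members had positive differences, as did 92.1% of all genes, whose median was 0.30.

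Scnn1b had the smallest p of the 8 members, at 0.63 ± 0.26 with a 95% interval of 0.09 to 1.17 (adjusted p from limma of 0.246, unadjusted 0.0246). All 6 ISM012-042 libraries lay above the vehicle median. The differences of Scnn1a and Scnn1g were 0.54 ± 0.37 and 0.66 ± 0.39. Hsd11b2 stood at 0.52 ± 0.25, Nr3c2 at 0.49 ± 0.24, Prss8 at 0.29 ± 0.21 and Sgk1 at 0.25 ± 0.39. Atp12a had the widest interval, -2.01 to 3.88, about a difference of 0.94 ± 1.40.

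Part of these values moved with the scale of the libraries. With median-ratio scaling, which brought the median of all genes to 0.01, Scnn1a stood at 0.23, Scnn1b at 0.34, Scnn1g at 0.45 and Atp12a at 0.70. Nr3c2 and Hsd11b2 stood at 0.18 and 0.19. Sgk1 and Prss8 took a negative sign, at -0.08 and -0.03.

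The last comparison was between ISM012-042 and sham, which differ in both colitis and compound. No member passed, beside a background of 1.42% of all genes, 0.545% higher and 0.871% lower. The balance of higher and lower genes depended on the scale, at 1.02% and 4.44% with median-ratio scaling, 1.8% and 3.89% with quantile normalization, and 4.87% and 2.66% without mitochondrial genes. Sgk1 was nearest, at 1.36 ± 0.39 (n = 6 per group, adjusted p from limma of 0.0907), a 2.57-fold higher level. Nr3c2 stood at -0.67 ± 0.24 (adjusted p from limma of 0.150) with no overlap of the groups, and Scnn1a at -0.99 ± 0.37 (0.162). Hsd11b2 stood at 0.68 ± 0.25 (adjusted p from limma of 0.159) and Scnn1b at 0.64 ± 0.26 (0.193). Of all tested genes 77.1% had positive differences, with a median of 0.21. Scnn1g and Prss8 had differences of 0.51 ± 0.39 and 0.30 ± 0.21, and Atp12a of -1.91 ± 1.40. With median-ratio scaling Nr3c2 and Scnn1a passed, at -0.88 and -1.21 (adjusted p from limma of 0.0224 and 0.0472), beside the 4.44% of all genes lower under that scaling.

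**Figure D3:**
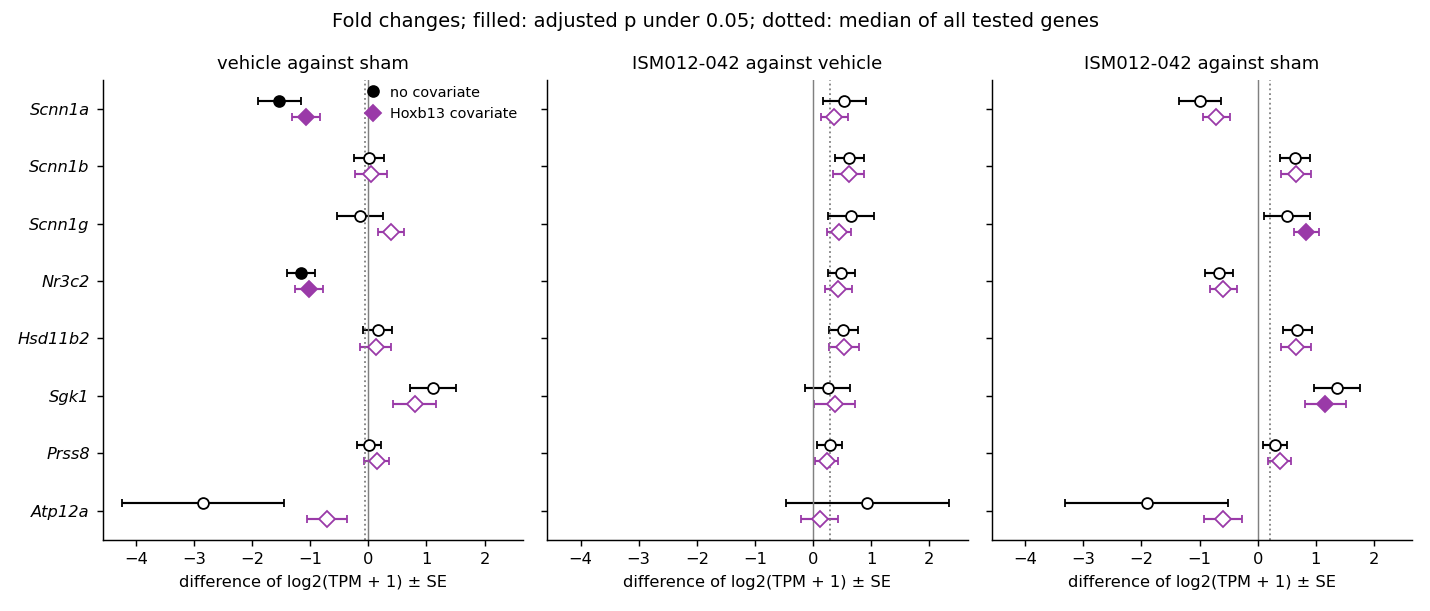
Difference of log2(TPM + 1) ± SE of each gene in the 3 comparisons (n = 6 per group), without a covariate and with the Hoxb13 level as a covariate. Filled symbols have an adjusted p from limma under 0.05 and the dotted line is the median of all tested genes. Scnn1a and Nr3c2 in vehicle against sham pass in both fits, and the error of Atp12a shrinks from 1.40 to 0.34 with the covariate.

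The levels of several members followed Hoxb13 from library to library, and 8 such relations were computed. Atp12a followed it most closely, with r = 0.974 and rho = 0.973 over 18 libraries (two-sided permutation p = 1e-05 for each, the smallest that 100000 permutations can give). Without the 2 libraries whose Hoxb13 lay farthest from the median, ISM012-042 replicate 5 and vehicle replicate 5, r was 0.978. Within sham, vehicle and ISM012-042 r was 0.993, 0.977 and 0.973 (exact permutation p = 0.00139, 0.0153 and 0.00556, n = 6). The rho within these groups was 1.0, 0.771 and 0.886 (exact permutation p = 0.00278, 0.103 and 0.0333), so that of vehicle was not under 0.05. The 2 sham libraries with little Atp12a, replicates 1 and 6, had 16.1 and 9.05 TPM of Hoxb13, and the other sham libraries at least 217.6.

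Scnn1a had r = 0.775 and rho = 0.825 with Hoxb13 (permutation p = 0.00023 and 3e-05), and r = 0.693 without the same 2 libraries. Its r within sham, vehicle and ISM012-042 was 0.958, 0.689 and 0.799 (exact permutation p = 0.00278, 0.132 and 0.0486, n = 6). Scnn1g had r = 0.767 and rho = 0.670 (permutation p = 0.00029 and 0.00298), r = 0.754 without those libraries, and r within groups of 0.903, 0.926 and 0.937. For Scnn1g the exact permutation p of r within groups were 0.0611, 0.0319 and 0.00139. Its rho within sham was 0.429 (exact permutation p = 0.419). Both subunits had positive r in each of the 3 groups, but not each was under 0.05. Within sham, Hoxb13 set replicates 1 and 6 apart from the rest. Within vehicle, replicates 3, 4 and 5 had 1.52 to 3.40 TPM of Hoxb13 and the others at least 84.5, so r there mostly contrasts these sets.

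Sgk1 ran the other way, with r = -0.559 and rho = -0.645 (permutation p = 0.0164 and 0.00462), and r = -0.540 without the 2 farthest libraries. The pooled values include the differences between groups, and with group means removed r was -0.516. Within groups its r was -0.835, -0.374 and -0.397, none under 0.05 (exact permutation p = 0.0847, 0.419 and 0.472). Nr3c2 had r = 0.490 and rho = 0.498 (permutation p = 0.0379 and 0.0376), and r = 0.426 without those libraries. Its r within groups was 0.372, 0.694 and -0.343, so the relation did not hold within ISM012-042. In the fit given further on, with the groups in the model, Nr3c2 had a slope on Hoxb13 near the median of all genes.

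Scnn1b, Hsd11b2 and Prss8 had pooled r of 0.05, -0.15 and 0.34 (permutation p = 0.849, 0.548 and 0.170), with rho of -0.15, -0.19 and 0.19. Without the 2 farthest libraries r was -0.09, -0.14 and 0.12. The sign differed between groups. Scnn1b had r of 0.937 within sham, -0.209 within vehicle and -0.171 within ISM012-042. Hsd11b2 had r of 0.847, -0.749 and 0.218, and Prss8 of -0.146, 0.894 and 0.134. Whether these differ between groups was not tested.

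**Figure D4:**
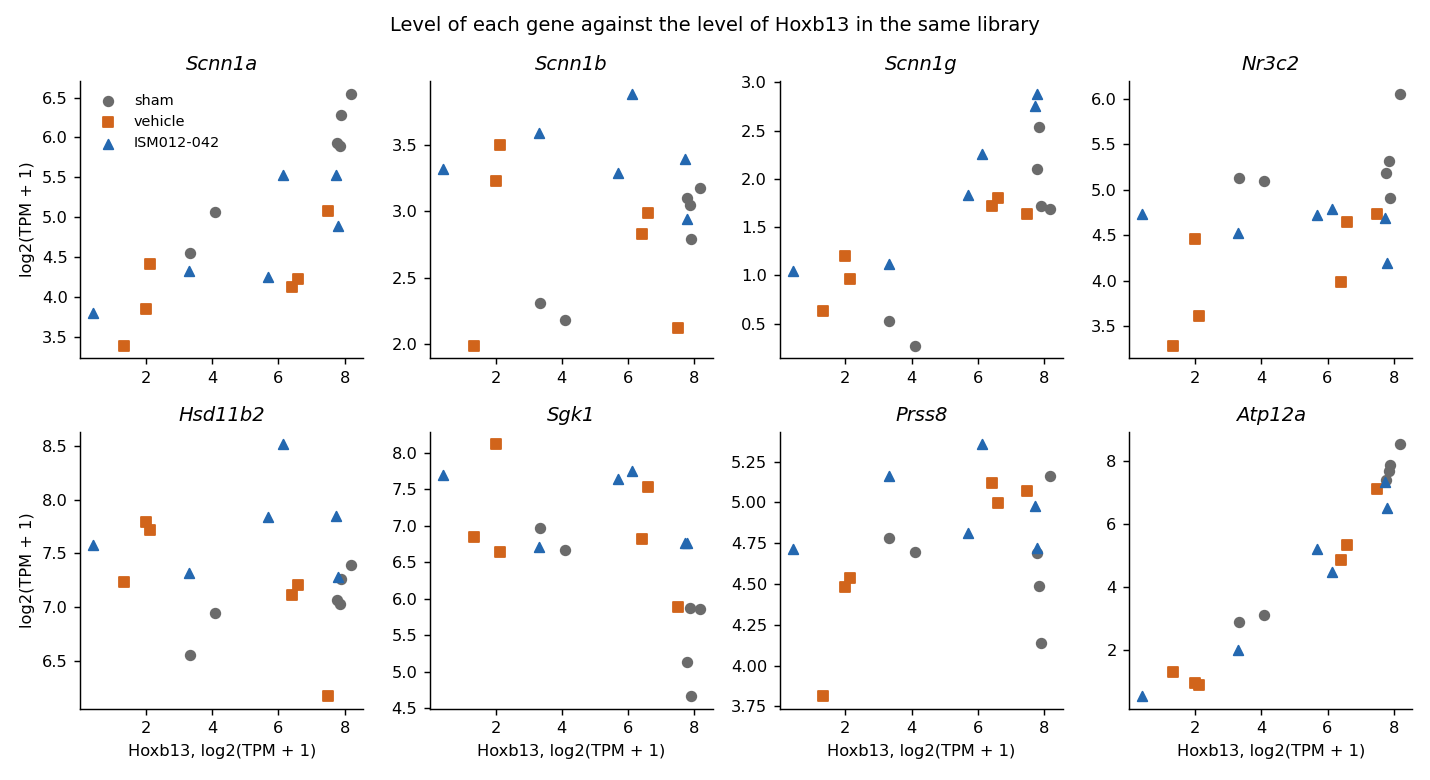
Level of each gene against the level of Hoxb13 in the same library, both as log2(TPM + 1), by group (n = 6 each). Atp12a lies on 1 line through all groups (r = 0.974), Scnn1a and Scnn1g are higher where Hoxb13 is higher, and Sgk1 is lower (r = -0.559).

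The relation was also fitted in limma for each of 14128 genes, with the groups in the model, as a slope of log2 level per log2 of Hoxb13. This test was added after the data had been seen. Atp12a had the steepest positive slope of all genes, 0.98 ± 0.05 (SE, adjusted p from limma of 4.61e-09). Scnn1g and Scnn1a had slopes of 0.25 ± 0.04 and 0.21 ± 0.04 (adjusted p from limma of 0.000233 and 0.00200), places 378 and 606 in order of slope. These 3 of 8 members stand beside a background of 32.9% of genes with a positive slope by this test and 3.21% with a negative one, and a median slope of 0.06. With median-ratio scaling, under which the background was 7.88% and 8.7%, the 3 slopes passed at 0.99, 0.22 and 0.16. Sgk1 then passed with a negative slope of -0.22 (adjusted p from limma of 0.0159), against -0.15 (0.0610) as deposited. The slope of Nr3c2 as deposited, 0.060 ± 0.038 (SE), lay near the median of all genes. It took place 6909 of 14128, with an adjusted p from limma of 0.201. With median-ratio scaling the slope of Nr3c2 was 0.003, beside a median of 0.004.

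With the Hoxb13 level as a covariate the difference of Atp12a between vehicle and sham was -0.71 ± 0.34 (adjusted p from limma of 0.223), against -2.85 without it. Scnn1a still passed, at -1.08 ± 0.25 (adjusted p from limma of 0.0208). Scnn1g took a positive sign, at 0.39 ± 0.22 (0.310). In ISM012-042 against sham, Scnn1g and Sgk1 passed with this covariate, at 0.84 ± 0.22 and 1.17 ± 0.35 (adjusted p from limma of 0.0314 and 0.0478). In that fit 7.84% of all genes were higher and 1.92% lower. With this covariate and median-ratio scaling together, where 1.37% were higher and 4.96% lower, neither passed, at 0.67 and 0.80 (adjusted p from limma of 0.0865 and 0.145). Whether a difference in the stretch of colon sampled contributes to the group differences was not tested, since the labels do not give the segment.

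Other genes of colonic sodium handling were described as 5 lists, by their counts and medians. The largest number of calls was in electroneutral sodium chloride uptake, the route by which a sodium-proton exchanger and a chloride-bicarbonate exchanger work in parallel. In vehicle against sham 5 of 10 tested genes fell and none rose, beside 4.13% of all genes that fell, with a median of -0.64 beside -0.07 for all genes. Slc26a3, the chloride-bicarbonate exchanger of the colon surface, fell by 2.66 ± 0.46, from 999.7 ± 451.2 TPM in sham to 175 ± 89.8 in vehicle (SD, n = 6, adjusted p from limma of 0.00500). The carbonic anhydrases Car4 and Car2 fell by 1.51 ± 0.24 and 1.06 ± 0.22 (adjusted p from limma of 0.00261 and 0.00937). The sodium-proton exchanger Slc9a2 fell by 1.03 ± 0.28, and Slc9a3r1, which encodes a scaffold protein of such exchangers, by 0.48 ± 0.13 (adjusted p from limma of 0.0398 and 0.0368). Slc9a3, the other main exchanger of the surface, stood at -0.36 ± 0.71.

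The water channel Aqp8, found on surface colonocytes, fell by 3.86 ± 0.73, with means of 833 TPM for sham and 86.8 for vehicle (adjusted p from limma of 0.00718). It had the largest difference of the 6 surface colonocyte markers. Lypd8 and Ceacam20 fell by 0.90 ± 0.23 and 0.94 ± 0.25 (adjusted p from limma of 0.0315 and 0.0348), while Krt20, Guca2a and Mall stood at -0.40 ± 0.23, 0.07 ± 0.30 and 0.11 ± 0.24 and did not pass. Epcam, a marker of epithelium as a whole, stood at -0.43 ± 0.19 (adjusted p from limma of 0.222). The 6 surface markers summed to 21120 to 34075 TPM in sham and 10885 to 21499 in vehicle, of which Lypd8 had means of 21612 and 12200, and none was at 0 in a whole group. Of 6 neutrophil markers 3 rose in vehicle, S100a8, S100a9 and Retnlg, by 6.63 ± 1.2, 6.66 ± 1.2 and 4.15 ± 0.92 (adjusted p from limma of 0.00616, 0.00605 and 0.0167). Their sum was 32.7 to 716 TPM in sham and 176 to 25023 in vehicle, but in sham it was mostly Ly6g, at 27.3 to 705 TPM. Ly6g stood at -1.14 ± 1.18 (adjusted p from limma of 0.671) and had a slope of 0.80 ± 0.07 on Hoxb13, in place 5 of 14128. The part of these cell types in the results on the 8 genes was not tested beyond the epithelial covariate.

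Among 15 kinases and proteins of channel turnover 1 fell and none rose, a share near the 4.13% of all genes that fell. This was Cnksr3, a scaffold for Sgk1 at the channel, which fell by 0.88 ± 0.24, from 18.2 ± 4.5 to 9.78 ± 3.78 TPM (SD, n = 6, adjusted p from limma of 0.0425). Rictor, a subunit of the complex that activates Sgk1, stood at -0.58 ± 0.19, and Nedd4l, the ubiquitin ligase that removes the channel and that Sgk1 restrains, at -0.46 ± 0.17 (adjusted p from limma of 0.0944 and 0.137). The median of the list was -0.08.

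Among 11 tested genes of corticosteroid receptors, synthesis and targets 1 rose and none fell, beside 0.326% of all genes that rose, with a median of 0.40. H6pd, which supplies the cofactor with which 11-beta-hydroxysteroid dehydrogenase 1 activates glucocorticoids, rose by 1.02 ± 0.26, from 7.54 ± 3.14 to 15.9 ± 3.7 TPM (SD, n = 6, adjusted p from limma of 0.0317). Hsd11b1, which encodes that dehydrogenase, stood at 1.41 ± 0.41, and Fkbp5, a glucocorticoid-induced chaperone, at 1.46 ± 0.42 (adjusted p from limma of 0.0574 and 0.0525). Over the 11 tested genes, 6 differences were positive and 5 negative, and a response to glucocorticoids was not tested. The negative ones were Nr5a2, Klf9, Nr3c1, Ndrg2 and Tsc22d3, at -0.47, -0.43, -0.26, -0.23 and -0.14, and none of them passed. Cyp11b1, which makes corticosterone, was under the level required for testing and was listed at 0 in 16 of 18 libraries.

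No gene passed among 9 proteases and inhibitors, with a median of -0.28, or among 12 tested genes of the sodium pump and potassium channels, with a median of 0.05. Of the former, Spint1, an inhibitor of prostasin's partner matriptase, stood at -0.51 ± 0.15 (adjusted p from limma of 0.0619). Serpine2 and Tmprss2 stood at 0.70 ± 0.32 and -1.07 ± 0.49. Of the latter, the potassium channel Kcnk5 stood at -0.86 ± 0.27, the pump regulator Fxyd3 at 0.47 ± 0.15 and the pump's beta subunit Atp1b1 at -0.46 ± 0.18 (adjusted p from limma of 0.0787, 0.0910 and 0.156).

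**Figure D5:**
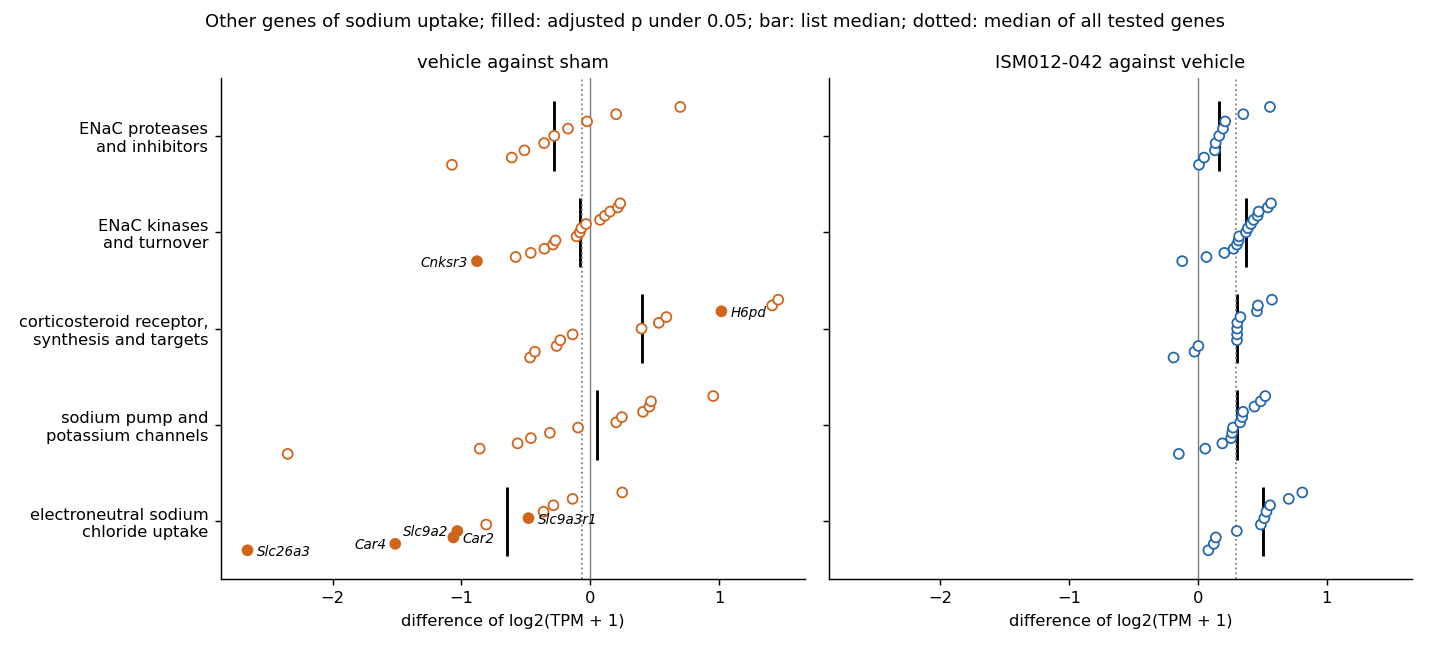
Difference of log2(TPM + 1) of the tested genes of 5 lists in vehicle against sham and in ISM012-042 against vehicle (n = 6 per group). Filled points have an adjusted p from limma under 0.05, bars are list medians and the dotted line is the median of all tested genes. The 5 filled points of electroneutral uptake lie between -2.66 and -0.48, and no point is filled for ISM012-042 against vehicle.

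In ISM012-042 against vehicle no gene of the 5 lists passed. List medians lay between 0.16 and 0.50, beside 0.30 for all genes. Of electroneutral uptake, Slc9a8, Car2 and Slc9a2 had the smallest p, at 0.56 ± 0.18, 0.52 ± 0.22 and 0.49 ± 0.28. Of the kinases and turnover genes these were Rictor, Nedd4 and Wnk4, at 0.47 ± 0.19, 0.54 ± 0.24 and 0.57 ± 0.28. Of the pump and channel genes, Kcnma1 and Kcnq1 stood at 0.44 ± 0.21 and 0.35 ± 0.18. Of the corticosteroid list they were the glucocorticoid receptor Nr3c1, Ndrg2 and Nr5a2, at 0.46 ± 0.19, 0.30 ± 0.15 and 0.47 ± 0.28. Klk1, Tmprss2 and Spint1, of the proteases and inhibitors, stood at 0.35 ± 0.29, 0.56 ± 0.49 and 0.16 ± 0.15. The adjusted p from limma of these 14 genes lay between 0.233 and 0.468.

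In ISM012-042 against sham 4 of the 57 tested genes of the lists passed, 3 higher and 1 lower, beside 0.545% and 0.871% of all genes. H6pd, Fkbp5 and the potassium channel Kcnq1 rose by 1.35 ± 0.26, 1.76 ± 0.42 and 0.81 ± 0.18 (adjusted p from limma of 0.0123, 0.0407 and 0.0324). Car4 fell by 1.38 ± 0.24 (0.00610).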

How the data were processed

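Colon RNA was measured by bulk RNA sequencing in 18 samples, and groups were taken from the sample titles. The deposited table holds TPM made by the authors, with DRAGEN 4.0.3 and the build mm10 named in the submitters' processing notes. Sources used here do not give the annotation, the counting or its strand setting. Since TPM is scaled to the library total, abundant transcripts lower the values of all others. Levels were tested as log2(TPM + 1) in limma 3.58.1 (R 4.3.3) on all 18 libraries in 1 fit with no covariate, with trend and robust empirical Bayes and Benjamini-Hochberg adjustment over the 14129 genes reaching 1 TPM in 6 or more libraries, at a threshold of 0.05. Both scripts were tested on simulated data. Subunit ratios and relations to Hoxb13 used permutation tests written in Python 3.11.15 with numpy 2.4.6, and scipy 1.17.1 gave the ranks for rho. Coordinates (1-based) and promoter sequences are from RefSeq, GRCm38.p6, the assembly of mm10, which matched 32501 symbols. Promoters were matched by symbol for 4 of the 8 members. The members and lists were chosen with earlier results of these data known. Named beside the 8 members are every passing gene of each list, filled to 3 by smallest p for vehicle against sham and ISM012-042 against vehicle, and for each member the 3 genes of highest correlation, without predicted and mitochondrial genes. Where fewer are named, a gene is not reported here. Kcnq1, Fkbp5 and H6pd are named for ISM012-042 against sham because they passed, and Cyp11b1, Slc9a3 and the cell type and position markers after their values were seen. The 5 negative genes of the corticosteroid list in vehicle against sham were also named after their values were seen. Replicate numbers were not taken to pair samples in the main fit, as nothing in the labels says that they do. Deviations of same-numbered samples correlated from -0.380 to 0.609, which cannot settle whether samples were paired. Alternatives were pseudocounts, filters, scalings, weights, covariates, the replicate block and leaving out each library.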

Additional observations from a re-analysis of the deposited data

Results flagged for a closer look

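Among 33 sets of 6 libraries examined, 2 held a library whose gap to the nearest other library exceeded 0.625 of the range of the set, where chance gives about 1 in 20. In sham, Nr3c2 was high in replicate 4, at 6.05 on the log2(TPM + 1) scale (65.5 TPM), with a gap of 0.650 of the range. Without this library the difference of Nr3c2 between vehicle and sham was -1.003 on the log2 scale and still passed (adjusted p from limma of 0.0246). In vehicle, the ratio of Scnn1b to Scnn1a was low in replicate 1, at -2.95 on the log2 scale, with a gap of 0.665 of the range. That library had the highest Scnn1a, Hoxb13 and Atp12a of the vehicle group, at 32.7, 179 and 139 TPM. Without it the ratio was 1.85 higher in vehicle than in sham.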

How the results depend on the processing

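Of 8 members, 2 passed in vehicle against sham and 0 in the other comparisons, and every alternative below gave these counts unless named. In vehicle against sham the epithelial covariate left 1, Nr3c2 (beside 6.7% of all genes), and leaving out 1 library gave 1 to 3 (2.38% to 6.82%). Over all the alternatives of this comparison 2.09% to 15.8% of all genes passed. ISM012-042 against vehicle gave 0 throughout. ISM012-042 against sham gave 2 with median-ratio scaling (Scnn1a and Nr3c2, beside 5.46% of all genes), 1 (Nr3c2) with quantile normalization (5.69%), without mitochondrial genes (7.52%) and with only the groups compared (5.02%), and 5 with array weights (Scnn1a, Scnn1b, Nr3c2, Hsd11b2 and Sgk1, 23.1%). It gave 2 with the Hoxb13 covariate (Scnn1g and Sgk1, 9.76%) and with the epithelial one (Sgk1 and Prss8, 30.5%), 5 with both (Scnn1a, Scnn1g, Nr3c2, Sgk1 and Prss8, 42.1%), 1 with Hoxb13 and median-ratio scaling (Nr3c2, 6.32%), and 0 to 1 (Sgk1, without sham replicate 6) leaving out 1 library. Differences changed sign as follows, none of them past the threshold, and the cause was not tested. In vehicle against sham these were Scnn1b with array weights (-0.072), Scnn1g with the Hoxb13 covariate (0.39), the epithelial one (0.062), both (0.26) and Hoxb13 with median-ratio scaling (0.35), and Hsd11b2 with the epithelial covariate (-0.033) and both (-0.019). Leaving out 1 library gave Scnn1b -0.14 to 0.17, Scnn1g -0.39 to 0.065 and Prss8 -0.094 to 0.18. In ISM012-042 against vehicle they were Sgk1 (-0.077) and Prss8 (-0.027) with median-ratio scaling, Prss8 also with the Hoxb13 covariate and median-ratio scaling (-0.026), and Atp12a with array weights (-0.24). The 4 ratio differences that passed did so at both other pseudocounts and without any 1 library. Scnn1g against Scnn1b was 0.15 in ISM012-042 against sham with a pseudocount of 0.1. In ISM012-042 against vehicle a pseudocount of 5 gave -0.052 for Scnn1b and -0.14 for Scnn1g against Scnn1a, and -0.090 for Scnn1g against Scnn1b. Leaving out 1 library gave -0.22 to 0.25, -0.031 to 0.22 and -0.24 to 0.24 for these 3, and -0.35 to 0.060 (vehicle) and -0.40 to 0.080 (ISM012-042) for Scnn1g against Scnn1b relative to sham. With median-ratio scaling r with Hoxb13 was -0.203 for Scnn1b, -0.103 for Prss8 and 0.303 for Nr3c2, which was 0.367 with group means removed, the last 2 not significant by permutation. Low TPM of Scnn1g, and of Atp12a where Hoxb13 was low, limit precision to an unknown degree.

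The replicate number as a block left 2 members passing in vehicle against sham (Scnn1a at adjusted p from limma of 0.0454) and 0 in the others. The paired ratio differences were the same, 1.54 and 1.63 for Scnn1b and 1.38 and 1.5 for Scnn1g against Scnn1a, but with 6 sign changes the adjusted exact permutation p were 0.141, 0.0938, 0.0938 and 0.0938, since the smallest exact p is 0.0312. A sample correlated best with its own number in at most 2 of 6 cases.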

Other observations

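The genes whose log2 levels followed each member most closely over the 18 libraries were read from 12902 genes, as a description without a p, since libraries share their composition and scale. Atp12a was nearest to Hoxb13, Unc119 and Tgm3, with r of 0.974, 0.973 and 0.973, beside a median of 0.306 over all genes. Tgm3 encodes a transglutaminase. Sgk1 was nearest to Pstpip2, Fkbp5 and Paqr4, with r of 0.924, 0.908 and 0.886, beside a median of 0.07. Fkbp5 is, like Sgk1, a gene induced by glucocorticoids, but a response to glucocorticoids was not tested. Among the genes nearest to Nr3c2 were Mkrn1 and Nr1d2, with r of 0.967 and 0.952, beside a median of 0.183. Nr1d2 encodes a nuclear receptor of the circadian clock.

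Scnn1a was nearest to Pdp2, Sytl1 and Gstm6, with r of 0.967, 0.961 and 0.955. Prss8 was nearest to Atp5a1, Cog3 and Clpx, with r of 0.950, 0.944 and 0.943, but its median over all genes was already 0.523. Scnn1b and Hsd11b2 shared Fahd2a as nearest gene, with r of 0.779 and 0.784. These 2 members also had the second highest r of the 28 pairs of members, 0.788, which was 0.696 with group means removed. Scnn1g was nearest to Rpl9, Lin37 and Pappa2, with r of 0.878, 0.862 and 0.855. Scnn1g had the lowest median TPM of the 8 members in each group, and the counting error in its values is unknown.

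Fxyd4, a regulator of the sodium pump known from aldosterone-responsive epithelia, moved with Hoxb13 as Atp12a did. Its slope was 0.68 ± 0.10 (SE, adjusted p from limma of 0.000248), in place 10 of 14128, and it was listed at 0 in 2 vehicle and 2 ISM012-042 libraries. Its lowest, median and highest levels in sham were 0.535, 25.1 and 69.5 TPM, and its difference of vehicle from sham was -2.35 ± 1.11 (adjusted p from limma of 0.271). The electroneutral exchanger Slc9a3 had a negative slope, -0.27 ± 0.11 (adjusted p from limma of 0.0554), which passed with median-ratio scaling at -0.35 (0.0376). Fxyd4 and Slc9a3 are named outside the rule, after their values were seen.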
